A study of Homo sapiens with 12 samples.

Results

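Imprinted genes are expressed mainly from the copy inherited from 1 parent. The 10 taken here are MEST, NDN, PEG3, PEG10, SGCE, PLAGL1, MAGEL2, DLK1, GRB10 and H19, chosen by the symbol that the array annotation gives each probe set. They have 20 of the 54613 probe sets that are not controls. Of these, 17 carry 1 symbol and cover 9 of the genes, and 3 are shared with another symbol. H19 has no probe set of its own: its 2 are annotated jointly to H19 and MIR675, the microRNA that the H19 transcript hosts. The remaining shared probe set is annotated to both PEG3 and ZIM2.

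RNA was measured on 12 expression arrays. L428 and L1236 are tumour cell lines grown from patients with classical Hodgkin lymphoma. Each line was grown in RPMI1640 with 10% FBS and was either left untreated or given 1 µM 5-Aza-dC (decitabine) for 24 h, washed and kept for 72 h without drug. The 4 groups hold 3 arrays each. Each line is a single line of tumour cells, so a difference between them is a difference between these lines. Nothing in the labels says that the arrays of a group came from separate cultures, so the p-values measure the spread between these arrays, which may be technical. The source name of untreated L1236 replicate 1 describes treated L428 cells, while its description gives L1236 without treatment. Its values correlated best with untreated L1236 replicate 3, at r = 0.9939.

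Values are log2 signals, on which 1 unit is a 2-fold difference. Array medians ran from 3.01 to 3.09. A probe set that stays near 2 to 3 lies at the low end of the scale, so the size of a change that starts there is uncertain. The signal of a probe set also depends on its own sequence, so levels are compared between samples and not between genes. In bulk RNA, a strong rise in few cells and a weak rise in many cannot be told apart.

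In both lines the treated array numbered 1 stood apart. Over all probe sets, treated L428 replicate 1 deviated from its group's mean with an SD of 0.385, and treated L1236 replicate 1 with an SD of 0.35, where the SD of the other 10 lay between 0.161 and 0.313. In each of the 4 groups the array numbered 1 deviated most, with an SD of 0.313 in untreated L428 and 0.23 in untreated L1236. The array nearest to treated L428 replicate 1 was untreated L428 replicate 3, at r = 0.9866. The labels do not say why, and the cause was not tested. Results are therefore also given from a fit without the 4 arrays numbered 1, which leaves 2 per group. That choice was made from these same values, so the spread left in that fit is likely too narrow. Its adjusted p can thus be too small, here and below, and are given as description only. Of the Hodgkin cell markers, TNFRSF8 (CD30) was at 10.39 ± 0.38 in untreated L428 and 9.57 ± 0.16 in untreated L1236 (SD, n = 3), whereas TRAF1 was near the low end in L1236 at 2.10. Of the 5 B-cell markers measured, MS4A1 was at the low end in both untreated lines, while PAX5 was at 5.32 in L428 and 11.78 in L1236 and CD22 at 4.45 and 5.12. Among markers of other cells, 2 of 7 T and NK cell genes and 1 of 6 myeloid genes rose in treated L1236. So did 4 of 7 stromal, endothelial and epithelial genes. Among them were CD8A by 3.36, ITGAM by 1.63 and EPCAM by 5.37. Of the 8 Hodgkin cell markers, 3 rose there as well, CCL22 by 6.45, CCL17 by 3.01 and CD40 by 1.35. With 1 probe set per gene, 7.41% of all genes were called higher in L1236. None of these lists had a call in L428, where 3.85% of all genes had one. In the untreated lines COL1A1 was at 7.71 and 7.66 and PECAM1 at 7.41 and 11.56 (L428 and L1236), while CD3E, CD14, LYZ, DCN and COL1A2 stayed near the low end. Their part in the L1236 changes below was not tested.

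Imprinting is set in the germ line as DNA methylation of control regions, and it is kept at each cell division by the maintenance methyltransferase DNMT1. In the embryo the zinc-finger protein ZFP57 binds the methylated letters TGCCGC and protects these marks. 5-Aza-dC is a cytidine analogue that is built into DNA and binds DNA methyltransferases irreversibly, and methylation is then diluted at each division. Where they are imprinted, MEST, NDN, PEG3, PEG10, SGCE, PLAGL1, MAGEL2 and DLK1 are expressed from the paternal copy, and H19 from the maternal copy. GRB10 is imprinted in a tissue-dependent way. No methylation and no allele was measured here.

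The start regions show how much CpG, the substrate of methylation, lies at the 6 members that had a window. PEG3 and SGCE had none, so members that moved cannot be compared here with those that did not. The regions are RefSeq windows of the GRCh38.p14 assembly, from 250 bases before to 50 after a transcript start. They run 5′ to 3′ in the direction of transcription, with each CpG in capitals. The printed windows are NDN (chr15:23687256-23687555, minus strand), its neighbour MAGEL2 (chr15:23647818-23648117, minus), MEST window 5 (chr7:130491835-130492134, plus), PLAGL1 window 3 (chr6:144008210-144008509, minus), and GRB10 windows 2 (chr7:50732304-50732603, minus) and 4 (chr7:50792825-50793124, minus).
NDN: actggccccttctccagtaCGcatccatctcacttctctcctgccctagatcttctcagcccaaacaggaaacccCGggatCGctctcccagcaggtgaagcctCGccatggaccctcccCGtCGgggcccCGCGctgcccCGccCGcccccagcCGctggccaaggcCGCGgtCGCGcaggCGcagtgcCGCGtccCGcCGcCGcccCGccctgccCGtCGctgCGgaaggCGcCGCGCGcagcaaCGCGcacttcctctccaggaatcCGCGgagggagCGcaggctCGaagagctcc
MAGEL2: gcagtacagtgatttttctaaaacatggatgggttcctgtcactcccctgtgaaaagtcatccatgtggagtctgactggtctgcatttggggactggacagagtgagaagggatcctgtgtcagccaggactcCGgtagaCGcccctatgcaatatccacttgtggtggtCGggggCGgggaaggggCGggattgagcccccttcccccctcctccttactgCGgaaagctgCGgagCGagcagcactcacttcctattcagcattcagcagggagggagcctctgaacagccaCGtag
MEST window 5: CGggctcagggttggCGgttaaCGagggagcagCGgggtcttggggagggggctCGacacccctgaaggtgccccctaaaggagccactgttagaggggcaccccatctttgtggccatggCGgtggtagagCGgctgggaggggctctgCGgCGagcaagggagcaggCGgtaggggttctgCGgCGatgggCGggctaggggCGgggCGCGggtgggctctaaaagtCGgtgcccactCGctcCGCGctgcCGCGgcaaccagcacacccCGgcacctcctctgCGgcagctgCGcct
PLAGL1 window 3: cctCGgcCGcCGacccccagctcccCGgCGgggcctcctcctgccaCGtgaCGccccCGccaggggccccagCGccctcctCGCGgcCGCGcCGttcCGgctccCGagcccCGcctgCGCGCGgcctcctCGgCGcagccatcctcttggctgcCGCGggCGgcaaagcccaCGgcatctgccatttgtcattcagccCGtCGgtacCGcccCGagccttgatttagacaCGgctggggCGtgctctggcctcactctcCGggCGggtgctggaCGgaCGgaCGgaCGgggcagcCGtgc
GRB10 window 2: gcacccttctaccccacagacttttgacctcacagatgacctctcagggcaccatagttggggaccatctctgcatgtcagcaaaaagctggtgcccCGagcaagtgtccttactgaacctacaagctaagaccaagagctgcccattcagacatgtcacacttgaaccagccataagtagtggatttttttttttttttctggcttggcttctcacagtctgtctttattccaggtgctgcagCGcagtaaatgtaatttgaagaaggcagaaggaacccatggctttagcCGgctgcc
GRB10 window 4: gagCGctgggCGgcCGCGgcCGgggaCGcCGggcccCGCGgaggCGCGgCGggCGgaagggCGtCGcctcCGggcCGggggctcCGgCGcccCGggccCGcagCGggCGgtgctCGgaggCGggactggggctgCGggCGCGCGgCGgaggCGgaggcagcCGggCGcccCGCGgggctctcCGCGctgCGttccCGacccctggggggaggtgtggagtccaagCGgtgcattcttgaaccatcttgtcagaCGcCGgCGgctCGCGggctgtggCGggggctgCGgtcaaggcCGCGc

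The NDN window holds 35 CpG and that of MAGEL2 holds 9, against a median of 14 and quartiles of 4 and 28 over 35116 windows. MEST has 5 windows with 13 to 25 CpG, PLAGL1 has 5 with 2 to 39, GRB10 has 5 with 3 to 49, and the single H19 window has 6. A gene with several starts can therefore have CpG-poor and CpG-dense ones, and the arrays do not tell which start was used. The printed MEST window 5 (25 CpG), PLAGL1 window 3 (39) and GRB10 window 4 (49) hold the most CpG of their genes. The letters TGCCGC, searched on both strands, occur in 7 of the 18 member windows, of 4 genes, and in 16.7% of all windows. Of these 7, 4 are MEST windows that overlap in pairs, and their 7 matches are 4 distinct sites. The NDN window has 1 match and MEST window 5 has 3. A match is a description of the sequence only. PEG3, PEG10, SGCE and DLK1 had no window.

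After 5-Aza-dC, in L428, MEST and NDN rose, by 2.21 ± 0.44 and 2.66 ± 0.57 on the log2 scale (± SE). In L1236, 3 probe sets of GRB10 rose by 0.91 to 3.32, PEG3 rose by 4.51 ± 0.84 and SGCE fell by 0.61 ± 0.14. PLAGL1, PEG10, DLK1, MAGEL2 and the probe sets shared with H19 were called in neither line. A probe set was called at a Benjamini-Hochberg adjusted p under 0.05 in limma, over all 54613 probe sets.

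In L428, 2 of the 17 probe sets with 1 symbol were called higher and 0 lower, where among all probe sets 1.82% were called higher and 1.2% lower. At an unadjusted p under 0.05 stood 6 of the 17, or 35.3%, against 16.2% of all probe sets. In L1236, 4 of 17 were called higher and 1 lower, against 4.58% and 4.44% of all probe sets, and the members' median change was 0.4 against -0.03 over all probe sets. With only the lead probe set of each of the 9 genes the median was 0.04, since GRB10 and PLAGL1 have several probe sets. Of these 9, 2 were called higher and 1 lower in L1236, against 7.41% and 4.99% of all lead probe sets. Without the arrays numbered 1, 6 of 17 were called in L428 (5 higher, 1 lower) and 9 of 17 in L1236 (7 higher, 2 lower). In that fit 18.2% and 23.3% of all probe sets were called.

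**Figure D1:**
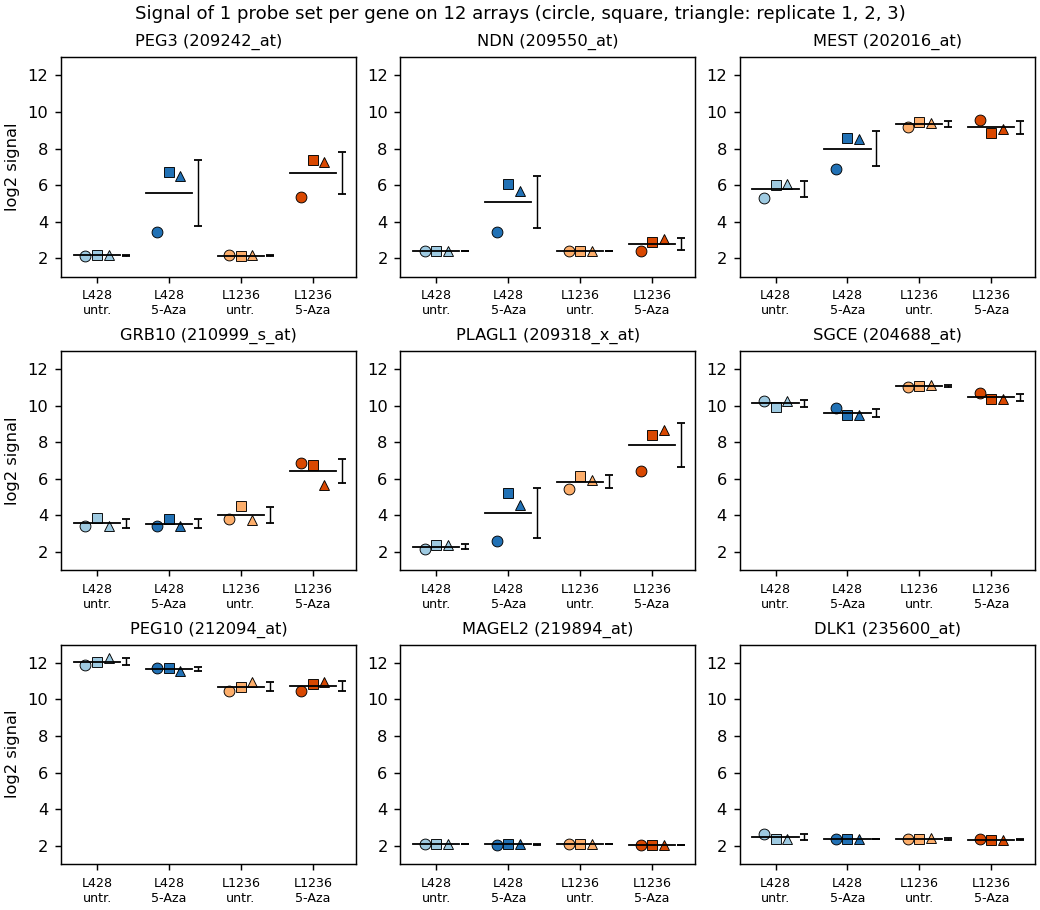
Log2 signal (vertical axis) of the lead probe set of each member gene on each array, with a line at each group mean and a vertical bar for ± 1 SD (n = 3). Lead means the highest mean over the 12 arrays, the treated ones included. Groups run from untreated to treated L428 and then L1236. PEG3 lies at 2.14 to 2.17 on all 6 untreated arrays and at 3.46 to 7.39 on the 6 treated ones, while NDN leaves the low end mainly in treated L428.

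PEG3 encodes a zinc-finger protein and was at the low end of the scale without drug in both lines. Its lead probe set (209242_at) read 2.14, 2.17 and 2.15 in untreated L428 and 2.15, 2.14 and 2.15 in untreated L1236. In treated L428 it read 3.46, 6.72 and 6.50, and in treated L1236 5.33, 7.39 and 7.26. In each line every treated array lay above every untreated one, and in both treated groups replicate 1 was the lowest.

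PEG3 was called in L1236, with a change of 4.51 ± 0.84 (limma, adjusted p = 0.0122). In L428 the change was 3.41 ± 0.84 and missed the threshold (limma, adjusted p = 0.0736). The difference between these responses, 1.10 ± 1.19, was not called (limma, adjusted p = 0.864). When the arrays numbered 1 were left out, PEG3 was called in both lines, at 4.45 in L428 (limma, adjusted p = 2.54e-05) and 5.18 in L1236 (limma, adjusted p = 1.18e-05). The difference between the lines was called in that fit too, at 0.73 ± 0.12 (limma, adjusted p = 0.0206). Leaving out treated L1236 replicate 2 or 3 ended the L1236 call, with limma adjusted p of 0.0547 and 0.0533.

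The second PEG3 probe set (209243_s_at) read lower and more unevenly after drug, at 2.73, 4.93 and 4.03 in L428 and 2.92, 5.34 and 4.25 in L1236. Its untreated arrays read 2.73 to 2.87, so replicate 1 of each treated group lay within or close to the untreated range. Its changes of 1.12 ± 0.64 and 1.39 ± 0.64 were not called. Without the arrays numbered 1 they were 1.69 (limma, adjusted p = 0.0672) and 2.0 (limma, adjusted p = 0.0335), and the latter was called. Untreated means were 2.77 in L428 and 2.78 in L1236 on this probe set, and 2.15 in both lines on 209242_at. The choice of 209242_at as lead thus rests on its treated arrays, on which its rise was also measured. The probe set shared by ZIM2 and PEG3 stayed at 2.23 to 2.84 on all 12 arrays.

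PLAGL1 is a zinc-finger transcription factor known to halt the cell cycle and to promote apoptosis. Its lead probe set (209318_x_at) read 2.14, 2.36 and 2.39 in untreated L428, and 2.61, 5.24 and 4.56 after drug. In L1236 it read 5.45, 6.17 and 5.93 untreated, and 6.44, 8.40 and 8.69 after drug. The groups of each line did not overlap, and the treated replicate 1 was again closest to the untreated arrays.

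The PLAGL1 changes were 1.84 ± 0.73 in L428 (limma, adjusted p = 0.249) and 2.0 ± 0.73 in L1236 (limma, adjusted p = 0.138), neither called. They were 2.53 (limma, adjusted p = 0.00316) and 2.50 (limma, adjusted p = 0.00228) without the arrays numbered 1. A fit with the replicate number as a block also called the L1236 change (limma, adjusted p = 0.0457). Between untreated lines, this probe set was higher in L1236 by 3.55 ± 0.73 (limma, adjusted p = 0.00705).

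A second PLAGL1 probe set (207002_s_at) read 4.02, 3.85 and 3.85 in untreated L1236 and 4.25, 6.86 and 6.78 after drug, a change of 2.06 ± 0.64 that was not called. Leaving out the arrays numbered 1 made that change 2.97 (limma, adjusted p = 3.55e-06) and the L428 change 1.18 (limma, adjusted p = 7.59e-05). The third (207943_x_at) ran the other way between treated L1236 arrays, with 4.22 in replicate 1 against 2.90 and 3.33. The probe sets of PLAGL1 therefore disagreed on which treated L1236 array was highest.

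**Figure D2:**
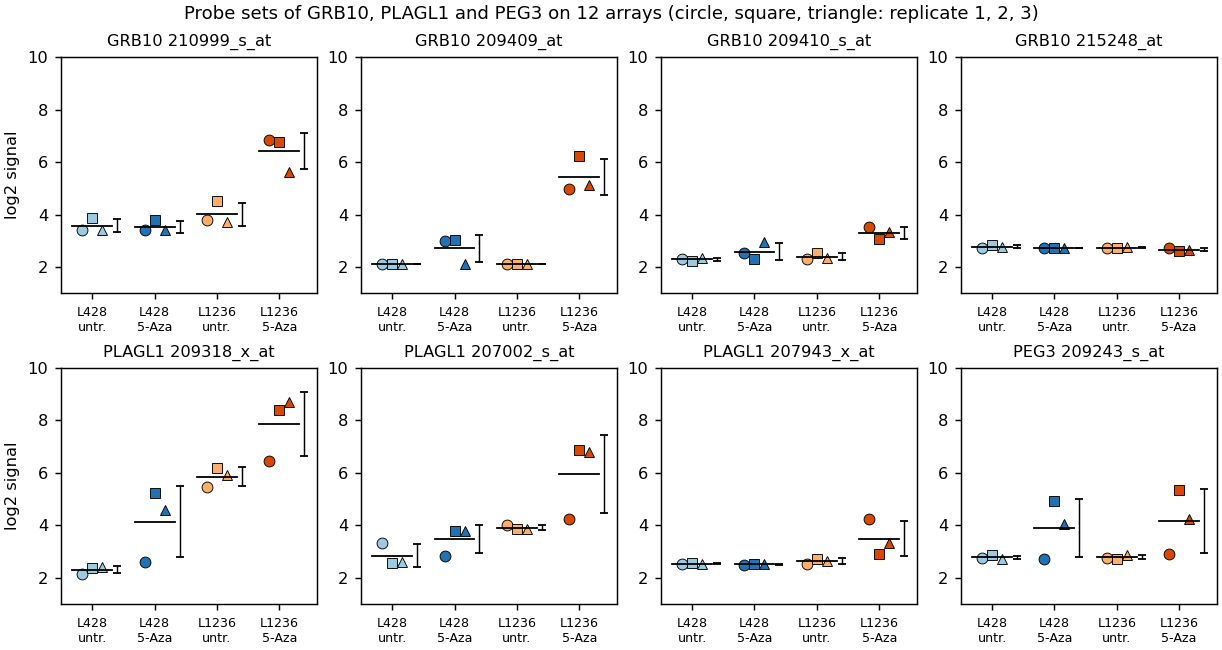
Log2 signal (vertical axis) of the probe sets of GRB10 and PLAGL1, and of the second of PEG3, on each array, by group, with a line at each group mean and a vertical bar for ± 1 SD (n = 3). Probe sets of one gene differ in level and response: in treated L1236, GRB10 209409_at reads 4.96 to 6.23 while GRB10 215248_at reads 2.61 to 2.72.

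NDN (necdin) and MAGEL2 belong to the MAGE protein family and lie next to each other in the Prader-Willi region of chromosome 15. NDN is best known as a growth suppressor of neurons. Its probe set (209550_at) read 2.39, 2.42 and 2.40 in untreated L428 and 3.43, 6.06 and 5.69 after drug. In L1236 it read 2.37, 2.39 and 2.40 untreated and 2.41, 2.91 and 3.04 after drug. Every treated array lay above the untreated arrays of its line, but the L1236 values stayed close to the low end.

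NDN rose in L428 by 2.66 ± 0.57 (limma, adjusted p = 0.0451). Its change in L1236 was 0.40 ± 0.57 (limma, adjusted p = 0.638), and the difference between the lines, -2.26 ± 0.81, was not called (limma, adjusted p = 0.246). The L428 call ended in 11 of 12 fits that each left out 1 array, with adjusted p up to 0.179, and in a fit of the L428 arrays alone (limma, adjusted p = 0.29). It held without treated L428 replicate 1. In the fit without the arrays numbered 1 its L428 change was 3.47 ± 0.12 (limma, adjusted p = 1.63e-04). That fit also called the L1236 change, at 0.58 ± 0.12 (limma, adjusted p = 0.0272). It called the difference between lines too, at -2.89 (limma, adjusted p = 0.00113).

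MAGEL2 stayed at the low end, at 2.04 to 2.10 on all 12 arrays, beside an NDN that moved in L428. Of 11 measured neighbours of NDN and MAGEL2, 0 were called in either line. Over all lead probe sets, 3.85% were called in L428 and 12.4% in L1236, and 11 genes are too few to tell 0 calls from these shares. The neighbours' changes ran from -0.73 to 0.54 in L428. There 4 (36.4%, against 19.8% of all lead probe sets) had an unadjusted p under 0.05 in limma. In L1236 they ran from -0.62 to 0.45, and 0 had such a p, against 30.1%. The limma adjusted p of UBE3A, a ubiquitin ligase imprinted in neurons, was 0.0694 in L428 for a change of -0.63 ± 0.15.

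GRB10 is an adaptor that binds the insulin and IGF1 receptors and dampens their signal. Of the members it had the smallest adjusted p after drug, and that was in L1236. One probe set (209409_at) read 2.12 on all 3 untreated L1236 arrays and 4.96, 6.23 and 5.13 after drug. In L428 it read 2.11, 2.13 and 2.12 untreated and 2.98, 3.04 and 2.12 after drug. The lead probe set (210999_s_at) read 3.79, 4.52 and 3.72 in untreated L1236 and 6.85, 6.78 and 5.64 after drug. In L428 the same probe set read 3.42, 3.86 and 3.43 untreated, and 3.40, 3.81 and 3.43 treated, so these groups overlapped.

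In L1236, GRB10 rose by 3.32 ± 0.34 on 209409_at (limma, adjusted p = 5.92e-04), by 2.42 ± 0.34 on the lead probe set (limma, adjusted p = 0.00334) and by 0.91 ± 0.17 on 209410_s_at (limma, adjusted p = 0.012). All 3 calls held when any single array was left out. Without all arrays numbered 1 the last was lost, at 0.75 (limma, adjusted p = 0.0945). With the L1236 arrays alone, the lead probe set was at a limma adjusted p of 0.0504. In L428 the changes were 0.59 ± 0.34, -0.03 ± 0.34 and 0.30 ± 0.17, none called. The fourth GRB10 probe set (215248_at) stayed at 2.61 to 2.85 on every array.

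The GRB10 response differed between the lines on 2 of its 4 probe sets. The L1236 response exceeded that of L428 by 2.73 ± 0.47 on 209409_at (limma, adjusted p = 0.0222) and by 2.44 ± 0.48 on the lead probe set (limma, adjusted p = 0.0373). These were 2 of 17 member probe sets called for this difference, where 2.57% of all probe sets were. Both are of the same gene: on lead probe sets it was 1 of 9, against 3.59% of all. The differences on 209410_s_at and 215248_at, 0.6 ± 0.24 and -0.03 ± 0.05, were not called (limma, adjusted p = 0.308 and 0.947). The first call ended in 4 of 12 fits that left out 1 array, those without untreated replicate 2 or 3 of either line (limma, adjusted p 0.0565 to 0.0599). The second ended in 8 of 12, with adjusted p up to 0.099, and with array weights, at 1.79 (limma, adjusted p = 0.203). In the fit without the arrays numbered 1 they were 3.11 and 2.12, and the first was called (limma, adjusted p = 0.0381) and the second not (limma, adjusted p = 0.123).

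DLK1 is a transmembrane protein related to Notch ligands. Its probe sets stayed at the low end, with 2.31 to 2.66 on the lead (235600_at) and 1.95 to 1.99 on the other (209560_s_at). The exception was treated L1236 replicate 1, where the latter read 3.02. DLK1 was called in neither line.

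MEST encodes a protein of the alpha/beta hydrolase family and differed between the lines before treatment. Its probe set (202016_at) read 5.28, 6.0 and 6.08 in untreated L428 and 6.89, 8.59 and 8.50 after drug. In L1236 it read 9.16, 9.45 and 9.42 untreated and 9.56, 8.87 and 9.08 after drug. Every treated L428 array was above the untreated ones and below the lowest L1236 array, while the L1236 groups overlapped.

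MEST rose in L428 by 2.21 ± 0.44 (limma, adjusted p = 0.0328), and its change in L1236 was -0.18 ± 0.44 (limma, adjusted p = 0.796). The difference between the lines, -2.38 ± 0.62, was not called (limma, adjusted p = 0.0964). The L428 call held only without treated L428 or treated L1236 replicate 1, and the other 10 single omissions gave changes of 1.91 to 2.35 with adjusted p of 0.0526 to 0.135. With the L428 arrays alone, its limma adjusted p was 0.243. Without the arrays numbered 1 the L428 change was 2.50 ± 0.08 (limma, adjusted p = 1.09e-04), MEST fell in L1236 by 0.46 (limma, adjusted p = 0.0129) and the difference was called at -2.97 (limma, adjusted p = 2.86e-04).

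SGCE, the epsilon-sarcoglycan of muscle and brain, and PEG10, a protein derived from a retrotransposon, are adjacent genes and were both well above the low end in both lines. SGCE (204688_at) read 11.00, 11.07 and 11.14 in untreated L1236 and 10.68, 10.36 and 10.35 after drug, with no overlap. In L428 it read 10.25, 9.92 and 10.24 untreated and 9.88, 9.48 and 9.47 after drug, again with every treated array below the untreated ones. SGCE fell in L1236 by 0.61 ± 0.14 (limma, adjusted p = 0.0299), and its L428 change of -0.52 ± 0.14 missed the threshold (limma, adjusted p = 0.0957). The L1236 call ended without any one of the 3 untreated or of treated replicates 2 and 3 of L1236, with adjusted p up to 0.116. With the arrays numbered 1 left out, SGCE fell in both lines, by 0.60 in L428 (limma, adjusted p = 0.0178) and by 0.75 in L1236 (limma, adjusted p = 0.00675).

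PEG10 was called in neither line after drug. Its lead probe set (212094_at) read 11.89, 12.06 and 12.24 in untreated L428 and 11.71, 11.74 and 11.56 treated, with every treated array below the untreated ones and a change of -0.40 ± 0.16 (limma, adjusted p = 0.273). In L1236 it read 10.46, 10.67 and 10.96 untreated and 10.44, 10.83 and 10.96 treated, with the groups overlapping. The 2 adjacent genes thus took opposite orders between the lines: PEG10 was higher in L428 and SGCE in L1236.

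H19 is a non-coding RNA, and the probe sets it shares with MIR675 stayed low. One (224646_x_at) read 3.44, 2.40 and 2.81 in treated L428 and 2.33 to 2.39 on the other 9 arrays, a change in L428 of 0.50 ± 0.20 that was not called (limma, adjusted p = 0.262). The other (224997_x_at) read 1.56 to 1.58 on all 12.

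**Figure D3:**
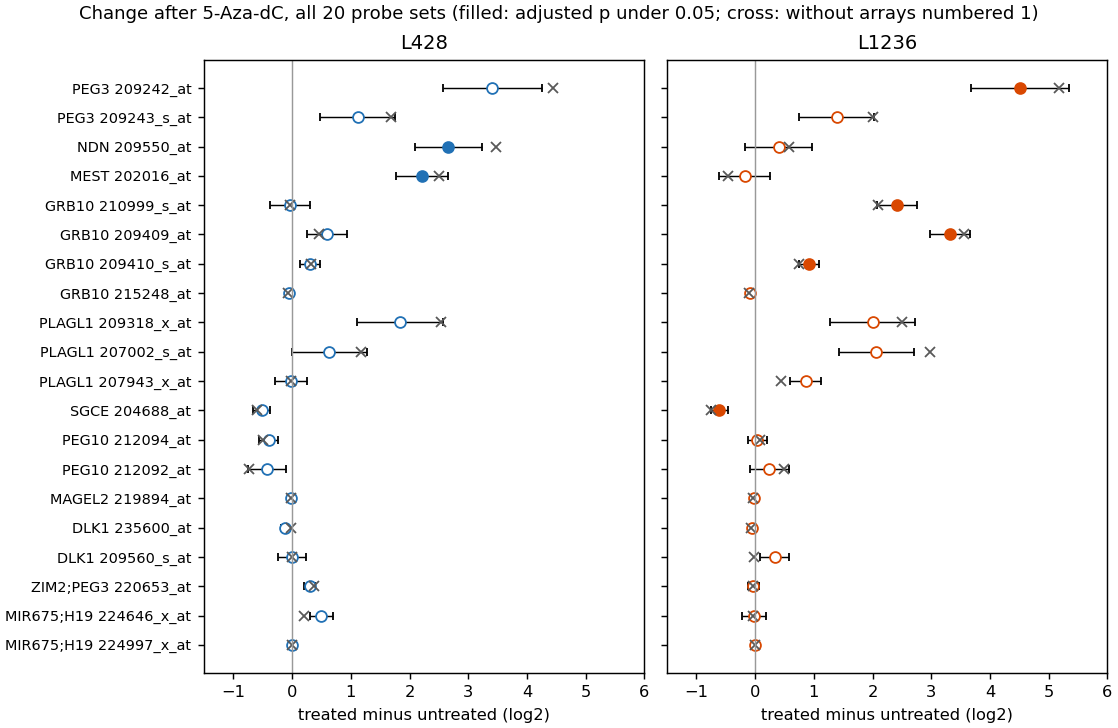
Log2 change after treatment (± SE) of the members' probe sets in L428 and in L1236, of all 20 probe sets, from the limma fit of 12 arrays. Filled points are called at an adjusted p under 0.05, and crosses are the changes without the arrays numbered 1. GRB10 209409_at stands at 3.32 in L1236 against 0.59 in L428, whereas MEST stands at 2.21 in L428 against -0.18 in L1236.

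Without drug, 5 of the 17 member probe sets differed between the lines, 3 higher in L1236 and 2 lower. Of all probe sets, 11.2% were called higher and 9.89% lower. On lead probe sets, 44.4% of the 9 genes were called, against 27.2% of all. MEST was higher in L1236 by 3.56 ± 0.44 (limma, adjusted p = 3.51e-04), as was PLAGL1 (above), and SGCE by 0.94 ± 0.14 (limma, adjusted p = 0.00119). PEG10 was lower in L1236, with a difference of -1.36 ± 0.16 on its lead probe set (limma, adjusted p = 3.12e-04) and of -1.19 ± 0.33 on 212092_at (limma, adjusted p = 0.03). The last call ended in 5 of 12 single omissions, those of untreated L428 replicates 2 and 3 and of each untreated L1236 array (limma, adjusted p up to 0.105), and the other 4 held in all 12. The order of the 4 groups for MEST was untreated L428 at 5.79 ± 0.44, treated L428 at 7.99 ± 0.95, treated L1236 at 9.17 ± 0.35 and untreated L1236 at 9.34 ± 0.16 (SD, n = 3), of which the last 2 do not differ beyond their spread.

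Other imprinted genes were taken as a list of 51, of which 39 had a probe set. On lead probe sets, 0 were called in L428, where 11 (28.2%, against 19.8% of all lead probe sets) had an unadjusted p under 0.05 in limma. In L1236, 5 were called higher and 1 lower. Over all 19775 lead probe sets, 2.84% were called higher and 1.02% lower in L428, and 7.41% and 4.99% in L1236. The L428 count rose to 10 of 39 without treated L428 replicate 1, in a fit that called 11.2% of all probe sets, and to 12 without all arrays numbered 1. In L1236 the count ran from 2, without untreated replicate 3, to 8 over the single omissions. It was 13 without all arrays numbered 1. That last fit called 18.2% of all probe sets in L428 and 23.3% in L1236. FAM50B, a paternally expressed gene, read 2.59, 2.67 and 2.54 in untreated L1236 and 6.90, 6.70 and 6.79 after drug. It rose there by 4.20 ± 0.08 (limma, adjusted p = 1.22e-08), and in L428 it was at 8.29 to 8.77 in both states. CDKN1C, a maternally expressed inhibitor of cyclin-dependent kinases, read 3.79, 4.19 and 3.38 untreated and 6.81, 7.37 and 6.92 treated in L1236, a rise of 3.25 ± 0.32 (limma, adjusted p = 4.87e-04). Both responses exceeded those of L428, FAM50B by 3.96 ± 0.11 (limma, adjusted p = 4.67e-07) and CDKN1C by 2.42 ± 0.45 (limma, adjusted p = 0.0278). The CDKN1C difference was lost in 6 of 12 single omissions (limma, adjusted p up to 0.0711) and with the replicate number as a block (limma, adjusted p = 0.0562), and that of FAM50B held in all of these.

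The other risers on that list were TFPI2 at 5.87 ± 1.53, the transcription factor WT1 at 3.26 ± 0.70 and the phosphatase INPP5F at 1.91 ± 0.35. TFPI2, an inhibitor of serine proteases that lies near PEG10 and SGCE, read 3.80, 10.17 and 10.53 in treated L1236, and its call (limma, adjusted p = 0.0471) ended in 11 of 12 fits that left out 1 array, with adjusted p up to 0.172. The WT1 call ended in 5 of 12, with adjusted p up to 0.0862. That of INPP5F ended without untreated L1236 replicate 3 (limma, adjusted p = 0.0501).

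Genes that set or keep imprints were taken as a list of 16, of which 14 were measured. In L428, 1 was called (7.14%, against 3.85% of all lead probe sets), and in L1236 5 were (35.7%, against 12.4%). The L428 count was 4 without treated L428 replicate 1 and 6 without all arrays numbered 1. These fits called 11.2% and 18.2% of all probe sets in L428. Single omissions gave 3 to 7 in L1236. The L428 gene was CTCFL, a germ-line relative of the insulator protein CTCF, which rose by 4.22 ± 0.20 (limma, adjusted p = 2.94e-05). In L1236, CTCFL rose by 4.38 ± 0.20 (limma, adjusted p = 4.73e-06), NLRP2, a maternal-effect gene of the oocyte, by 4.60 ± 0.39 (limma, adjusted p = 1.96e-04), and ZFP57 by 1.54 ± 0.33 (limma, adjusted p = 0.0221). CTCF fell there by 0.86 ± 0.08 (limma, adjusted p = 3.96e-04) and DNMT1 by 0.57 ± 0.14 (limma, adjusted p = 0.034). The ZFP57 call ended in 4 of 12 fits that left out 1 array and the DNMT1 call in 6, with adjusted p up to 0.0803 and 0.128.

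Neighbours are a fixed list of genes on the chromosome of a member, with up to 9 protein-coding genes between. Some, such as TFPI2, are also on the list of other imprinted genes and count in both. Of 61 measured neighbours of the members, 1 was called in L428 (1.64%, against 3.85% of all lead probe sets). In L1236, 8 neighbours were called (13.1%, against 12.4%). These shares lie near those of all genes. Without treated L428 replicate 1, 12 were called in L428, in a fit that called 11.2% of all probe sets. Single omissions gave 1, without untreated L1236 replicate 3, to 9 in L1236. Without all arrays numbered 1, 14 were called in each line. That fit called 18.2% of all probe sets in L428 and 23.3% in L1236. The L428 neighbour was WDR25 near DLK1, at 1.26 ± 0.27 (limma, adjusted p = 0.043), and its call ended in 10 of 12 fits that left out 1 array, with adjusted p up to 0.153. In L1236, 7 were called higher and 1 lower. Those past 1 log2 unit were TFPI2 and PON2 near PEG10 and SGCE, LSP1 and MRPL23 near H19, WARS1 and BEGAIN near DLK1, and DDC near GRB10. DDC, which encodes aromatic amino acid decarboxylase and lies beside GRB10, rose by 1.0 ± 0.22 (limma, adjusted p = 0.026), and the other 4 measured neighbours of GRB10 were not called. LSP1 rose by 2.43 ± 0.48 and MRPL23 fell by 1.23 ± 0.31. Each of these 7 calls ended in at least 1 fit that left out 1 array, with the highest limma adjusted p running from 0.0637 for LSP1 to 0.172 for TFPI2. The WARS1 rise of 2.06 ± 0.53 (limma, adjusted p = 0.0459) was lost with the replicate number as a block (limma, adjusted p = 0.0815).

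None of 5 neighbours of PEG3 and none of 7 of PLAGL1 was called by limma in either line. At an unadjusted p under 0.05, 0 PEG3 neighbours passed in L428 and 1 in L1236, and 1 PLAGL1 neighbour passed in each line. Over all lead probe sets, 3.85% were called in L428 and 12.4% in L1236, and 19.8% and 30.1% passed unadjusted. Lists of 5 and 7 genes are too short to tell 0 calls from these shares. Near MEST, CPA5 was called in L1236 at 0.52 ± 0.07 (limma, adjusted p = 0.00257), under the 1 log2 unit asked of named neighbours. Its means there were 2.76 untreated and 3.28 treated, near the low end. The CPA5 call held in all 12 single omissions (limma, adjusted p up to 0.0117). Beside MEST, CEP41 changed by 1.38 ± 0.41 in L428 (limma, adjusted p = 0.124) and COPG2 by -1.44 ± 0.43 in L1236 (limma, adjusted p = 0.0747), neither called.

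**Figure D4:**
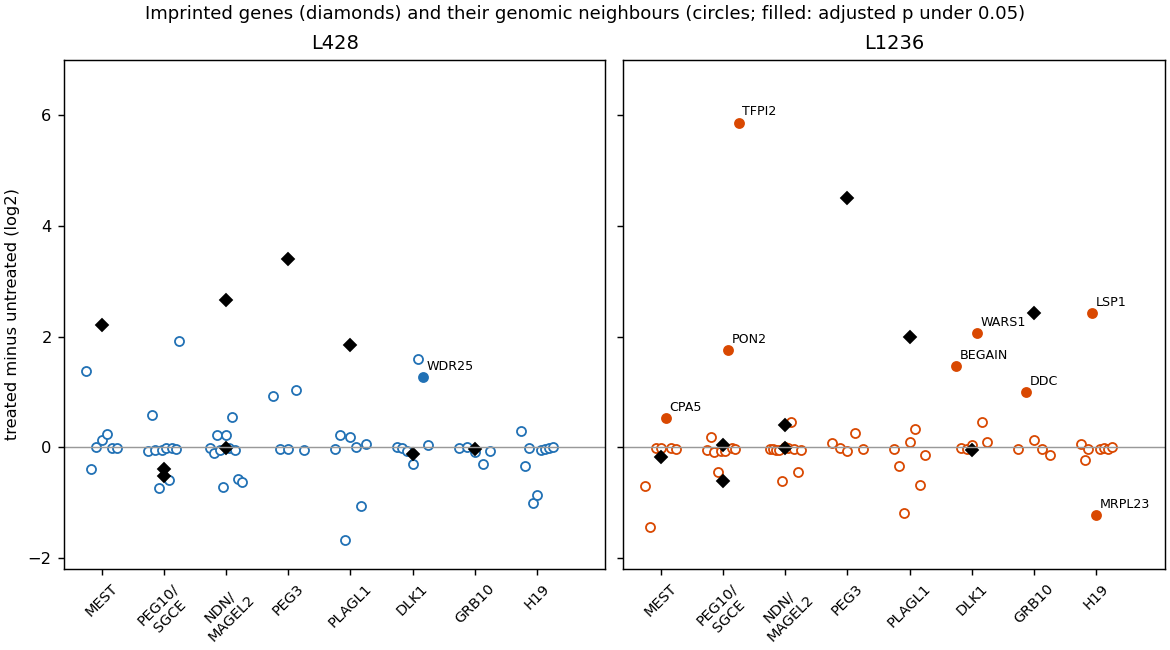
Log2 change after treatment of the measured neighbours of each member region, on lead probe sets, in both lines, with circles for neighbours (filled where called by limma) and diamonds for the members. In L1236 TFPI2 stands at 5.87 near PEG10 and SGCE, while the 11 neighbours of NDN and MAGEL2 lie between -0.73 and 0.54 in L428.

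Genes with the pattern most like that of the member with the largest called change in each line were found by the root mean square difference of centred log2 signals over the 12 arrays. For NDN in L428 they were RFPL3 at 0.21, CH25H, the cholesterol 25-hydroxylase, at 0.26, and LUZP4 at 0.27, where the median gene was at 1.27. For PEG3 in L1236 they were the transporter gene SLC15A3 at 0.28, BEX2 at 0.39 and MLF1 at 0.41, against a median of 2.22. RFPL3, like NDN, read 2.64, 5.39 and 4.70 in treated L428, with replicate 1 lowest, and it was not called (limma, adjusted p = 0.0759). MLF1, like PEG3, read 5.27, 7.06 and 7.05 in treated L428 and 6.85, 8.55 and 8.16 in treated L1236.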

How the data were processed

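RNA of 12 samples was measured in 4 groups of 3 arrays, grouped by the sample descriptions. The authors deposited 1 log2 signal for each probe set and array. The submitters' processing notes name RMA (robust multichip average); its version, and any scaling beyond it, is not given in the sources used here. According to the design text the array was of the whole-transcript type, but the identifiers in the table belong to a 3' array, and these were used. Array number limits the precision.

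Probe sets took their symbols from the platform annotation: 41097 had 1, 1801 several and 11777 none. Of those with 1, 41043 were matched to RefSeq. The 62 controls were left out and no dim probe set was removed.

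limma 3.58.1 in R 4.3.3 fitted 4 group means to the 12 arrays, with moderated variances (eBayes) and p-values adjusted by Benjamini-Hochberg over 54613 probe sets, two-sided. The lines' contrasts share no control arrays. The procedure was tested on simulated data. Such data cannot show how well the fit suits the uneven spread of the real arrays, so that question was not tested.

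Members and gene lists were chosen with earlier results of these data known. Every member probe set is reported. Other imprinted genes and neighbours are named where called with a log2 change of at least 1, up to 8 per line, and imprint maintenance genes where called, up to 5 per line. Neighbours outside the rule (CEP41, COPG2, CPA5, UBE3A) and the markers were chosen after their values were seen.

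Replicate numbers come from the sample titles. Deviations of same-numbered untreated and treated arrays correlated at 0.26, 0.15 and 0.17 in L428, each over 0.1, the limit taken for pairing, and at 0.07, 0.01 and 0.10 in L1236, which does not. Untreated and treated L428 arrays numbered 2 and 3 correlated as well across numbers, at 0.16 and 0.17, so these data set number 1 apart and do not tell 2 from 3. The alternatives were single arrays left out, all arrays numbered 1 left out, 1 line only, a replicate block, array weights, median centring, quantile and cyclic loess normalization, brighter probe sets only, a trended robust prior and 1 probe set per gene.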

Additional observations from a re-analysis of the deposited data

Results flagged for a closer look

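On 2 of its 4 probe sets, the response of GRB10 to 5-Aza-dC differed between the lines by the test of the difference itself. The L1236 response minus that of L428 was 2.73 ± 0.47 on the log2 scale for probe set 209409_at (limma, adjusted p = 0.0222), with untreated and treated means of 2.12 and 5.44 in L1236 and of 2.12 and 2.71 in L428. It was 2.44 ± 0.48 for 210999_s_at (limma, adjusted p = 0.0373), with means of 4.01 and 6.43 in L1236 and of 3.57 and 3.54 in L428. The latter call was lost with array weights, at 1.79 (limma, adjusted p = 0.203), and with quantile normalization, at 2.40 (limma, adjusted p = 0.0539). The calls on 209409_at and 210999_s_at ended in 4 and 8 of 12 fits that left out 1 array. Both treated L1236 groups lay above all other arrays of their probe set. Groups of 3 arrays were too small to test for an outlying sample.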

How the results depend on the processing

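No member's called change turned sign under any alternative run. Over 80 member comparisons, 1540 alternative values kept their side of the threshold, 43 passed it newly and 53 fell below it, and 63 uncalled values changed sign. Single omissions gave 717 to 6091 called probe sets in L428, 2502 to 8725 in L1236, 733 to 3588 for the difference between lines and 9631 to 12399 between untreated lines. For the 17 member probe sets they gave 0 to 5 calls in L428 (0 in 10 of 12), 3 to 8 in L1236, 0 to 4 for the difference and 4 to 6 untreated. The highest counts after drug came without treated replicate 1 of L428 or L1236.

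Calls over all probe sets were 1647 in L428, 4927 in L1236, 1403 for the difference and 11508 between untreated lines. Without the arrays numbered 1 they were 9956, 12713 and 7816. With the line's own arrays they were 244 and 3084. With array weights, whose estimate did not fully converge, L1236 had 29528 and the difference 2876; median centring gave L1236 13111, and brighter probe sets only gave L428 2539. With 1 probe set per gene they were 920, 2955, 914 and 5699. The share of L1236 calls that were higher was 50.8%, against 24.6% after median centring and 26.8% with array weights. Member calls were 2, 5 and 2: without arrays numbered 1 they were 6, 9 and 5. With L428 alone there were 0, with array weights 12 in L1236, with median centring 8 there, with quantile normalization 1 for the difference, and with 1 probe set per gene 3 in L1236 and 1 for the difference. Apart from the smaller numbers of arrays or probe sets, the cause was not tested.

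With the replicate block, limma's adjusted p was 0.042 for MEST and 0.0456 for NDN in L428, 0.00984 for PEG3 and 0.0208 for SGCE in L1236, and 0.0321 and 0.0219 for the GRB10 differences; PLAGL1 in L1236 passed the threshold with it, WARS1 and the CDKN1C difference (given above) and TP73 (0.0701) lost their calls, and no other member call changed. Counts under the block were 1826, 5884, 1142 and 12233.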

Other observations

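On the list of other imprinted genes, ZNF597 changed by 2.46 ± 0.62 in L428 and 2.0 ± 0.62 in L1236 (limma, adjusted p = 0.0793 and 0.0866), and NAP1L5, a paternally expressed gene, by 2.10 ± 0.57 and 1.91 ± 0.57 (limma, adjusted p = 0.0997 and 0.0764). Neither was called in either line. TP73, a relative of p53, was the gene of that list that fell in L1236, by 0.94 ± 0.24 (limma, adjusted p = 0.044), a call that ended in 10 of 12 single omissions (limma, adjusted p up to 0.141). These genes were chosen after their values were seen.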
